A study of Mus musculus with 36 samples.

Results

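The gene module described here holds Myc and 32 genes for ribosome assembly and nucleotide supply, taken from a list by symbol. The list was chosen with earlier results of these data known. All 33 were found in each of the 5 tables of RNA-seq values from embryonic mouse hearts, which hold 14846 genes in any table and 13045 in all 5. Jag1flox;Nfatc1-Cre (4 libraries) and Dll4flox;Nfatc1-Cre (2 libraries) were whole hearts at E12.5 with 4 embryos a pool. Dll4flox;Cdh5-CreERT2 (3 libraries) and Dll4GOF;Tie2-Cre (3 libraries) were ventricles at E15.5 with 3 embryos a pool, and Efnb2flox;Nfatc1-Cre (4 libraries) were ventricles of single embryos at E16.5. Each experiment had 4 WT libraries of its own at the same stage and from the same tissue. Floxed alleles were homozygous. Nfatc1-Cre acts in the endocardium and sinus venosus, Tie2-Cre in endothelium, and Cdh5-CreERT2 in endothelium after tamoxifen, given at E12.5, so the libraries also hold all heart cells in which the alleles were not recombined. The Dll4GOF allele is a Dll4 transgene with Myc epitope tags, from 1 targeted line, and whether its reads count toward Myc was not tested. For Dll4flox;Nfatc1-Cre the study left out libraries on their Dll4 level and principal components, which leaves 2 mutant libraries.

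Ribosomes are built in the nucleolus. RNA polymerase I copies the ribosomal DNA, small nucleolar ribonucleoproteins (snoRNPs) modify the transcript, and assembly factors fold and cut it into the small and large subunits. The transcription factor Myc binds E-boxes, of which CACGTG is the best known, and raises many of these genes and the enzymes of nucleotide synthesis together, which couples ribosome supply to growth. The embryonic heart grows quickly, and a growing cell needs new ribosomes.

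Values are counts normalized to CPM, and fold changes are mutant minus own WT on the log2(value + 0.5) scale, tested with limma over all genes of a table. An adjusted p under 0.05 was taken as a call. Reads per library, recovered from the values, ranged from 7827496 to 28464430. Jag1flox;Nfatc1-Cre libraries were shallower than their WT, at 12914259 to 18581508 against 18182839 to 28464430 reads, and Dll4flox;Cdh5-CreERT2 libraries spanned 8262124 to 12539286 against 10622477 to 14774561 reads. The targeted genes went the way of the labels in each experiment. Jag1 fell (log2 fold change -0.82) and Dll4 fell with Nfatc1-Cre (-3.03), while Dll4 with Cdh5-CreERT2 (-1.12, adjusted p = 0.0507), Dll4 with Dll4GOF (0.28) and Efnb2 (-0.52) missed the threshold in limma. Summed atrial markers were between 3285 and 4859 in the E12.5 libraries and between 818 and 1680 in the ventricle libraries. In bulk tissue, fewer cells of a type and less RNA per cell cannot be told apart.

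The 33 genes lay lower in Jag1flox;Nfatc1-Cre hearts and higher in Dll4flox;Cdh5-CreERT2 ventricles than in their WT. In Jag1flox;Nfatc1-Cre hearts 28 log2 fold changes were negative and 5 positive, with a median of -0.11 and a range of -0.42 to 0.071, whereas 49.1% of all genes were negative. In Dll4flox;Cdh5-CreERT2 ventricles 4 were negative and 29 positive, with a median of 0.12 and a range of -0.025 to 0.47, against 50.2% negative over all genes. Few members passed the test on their own: 2 fell in Jag1flox;Nfatc1-Cre hearts, 1 fell in Dll4flox;Nfatc1-Cre hearts, 2 rose in Dll4flox;Cdh5-CreERT2 ventricles, and none passed in the other experiments. The changes were small, so the description below rests on single libraries and on counts. Members can move together within a library, so their counts are not those of 33 independent genes. In the Efnb2 experiment, WT library 3 had 27 members below the mean of its WT group and 6 above. WT library 1 there had 7 below and 26 above.

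**Figure D1:**
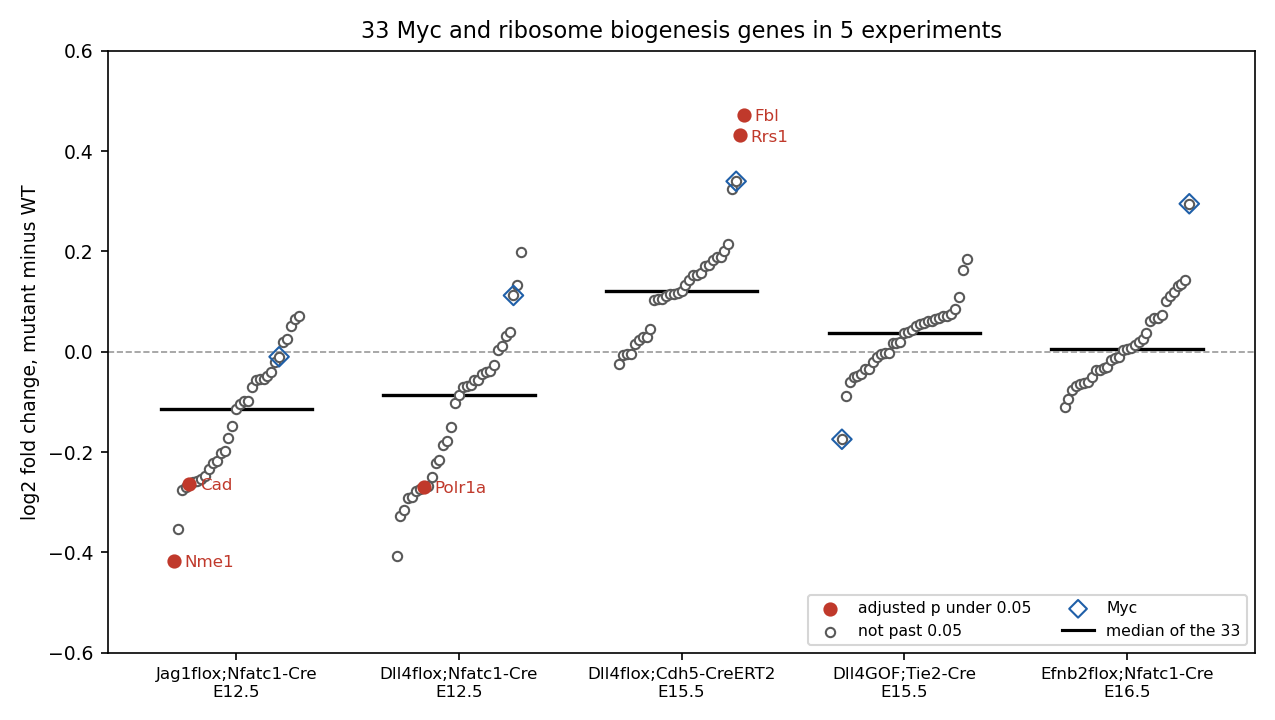
The log2 fold change of each of the 33 genes, mutant minus own WT (y axis), in the 5 experiments (x axis), with filled red points at an adjusted p under 0.05, a diamond around Myc and a bar at the median. The medians are -0.11, -0.087, 0.12, 0.036 and 0.0054 from left to right.

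In 3 of the experiments every mutant library had the sign of its group. The median log2 ratio of the 33 genes to the WT mean was -0.23, -0.17, -0.10 and -0.074 in the 4 Jag1flox;Nfatc1-Cre libraries, against -0.0042, 0.0019, 0.011 and 0.049 in WT. It was 0.17, 0.10 and 0.083 in the 3 Dll4flox;Cdh5-CreERT2 libraries, against 0.033, 0.021, 0.0094 and -0.044 in WT. In both experiments the mutant and WT libraries did not overlap on this measure. It was -0.089 and -0.16 in the 2 Dll4flox;Nfatc1-Cre libraries, against -0.0019, 0.00072, -0.035 and 0.039 in WT, again with no overlap. The Dll4GOF;Tie2-Cre libraries lay at -0.011, 0.11 and -0.034, against -0.021, 0.0094, -0.00075 and 0.026 in WT, and the Efnb2flox;Nfatc1-Cre libraries at 0.038, -0.014, 0.030 and -0.0024, against 0.077, -0.036, -0.075 and 0.032 in WT. Mutant and WT libraries overlapped in these last experiments.

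**Figure D2:**
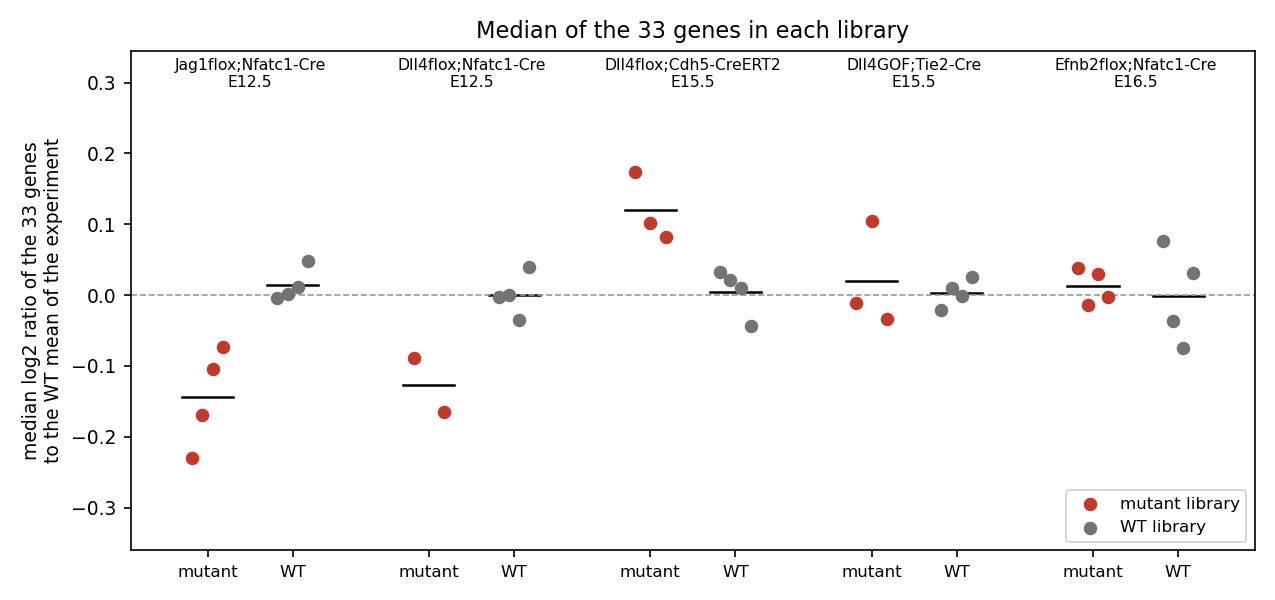
The median log2 ratio of the 33 genes to the WT mean of the same experiment (y axis), 1 point a library, mutant left of WT, with a bar at the mean of the points. All 4 Jag1flox;Nfatc1-Cre libraries lie below their WT libraries and all 3 Dll4flox;Cdh5-CreERT2 libraries lie above theirs.

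In Jag1flox;Nfatc1-Cre hearts the genes that fell were the nucleotide enzymes of the list, Nme1 and Cad. Called genes made up 0.637% of all genes tested for lower and 1.12% for higher, and 2 of the 33 members were called lower and none higher. Without the adjustment, 15 members had p under 0.05, all lower, against 11.2% of all genes lower at that p. All mutant libraries lay below all WT libraries for 14 members, against 7.04% of all genes, and above them for none, against 6.77%. Nme1, a nucleoside diphosphate kinase on chromosome 11 (93956979 to 93968521, minus strand, GRCm38), measured 58.6, 56.4, 61.2 and 57.7 in mutant hearts, against 70.1, 85.1, 79.4 and 78.8 in WT. The groups did not overlap, and the mean was 58.5 ± 2.04 in mutant and 78.3 ± 6.21 in WT hearts (SD, n = 4 each), a log2 fold change of -0.42 (SE 0.0631, limma adjusted p = 0.0200). Cad, the multifunctional enzyme that starts pyrimidine synthesis, on chromosome 5 (31054780 to 31078479, plus strand), measured 106, 108, 106 and 116 in mutant hearts, against 132, 121, 134 and 136 in WT. Every mutant value was under the lowest WT value, with a log2 fold change of -0.26 (SE 0.0539, limma adjusted p = 0.0390). Nme1 is nearly identical to its neighbour Nme2, so reads could have been divided between the pair when counts were estimated.

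Both calls depended on single libraries. Nme1 was no longer called without WT library 3 (adjusted p = 0.0724) or WT library 4 (0.0578), and Cad was not called without mutant library 1 or 2 or without any single WT library (0.0514 to 0.130). DESeq2 on the recovered reads called 10 of the members lower, where it called 461 of 13708 genes lower. Next by p was Ccdc86, a nucleolar protein, at 16.0, 18.6, 20.2 and 20.9 in mutant hearts against 22.7, 24.1, 24.0 and 26.0 in WT, again without overlap (log2 fold change -0.35, limma adjusted p = 0.0609). Myc itself measured 22.0, 25.7, 26.3 and 27.2 in mutant hearts, against 23.7, 25.4, 25.6 and 26.9 in WT. Its groups overlapped throughout, with a log2 fold change of -0.010 (SE 0.0779).

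By role, most assembly factors also lay below WT in Jag1flox;Nfatc1-Cre hearts, and none of the genes that follow passed the adjusted threshold. Of 8 small subunit factors 7 were negative, with Rrp9, a protein of the U3 snoRNP, at -0.27, Bysl (bystin) at -0.26, Rrp12, a factor for export of the small subunit, at -0.25, and Noc4l at -0.23. Of 7 large subunit factors 6 were negative, with the rRNA methyltransferase Nop2 at -0.28, Bop1, which acts with Pes1 and Wdr12 in 1 complex, at -0.26, Wdr12 at -0.20, Nop16 at -0.20 and the methyltransferase Ftsj3 at -0.15. Pes1, in the same complex, was at 0.020. Among snoRNP proteins, Nop56, a scaffold of the box C/D class that guides ribose methylation, was at -0.22, while its partners Fbl (-0.056) and Nop58 (-0.048) lay near 0. In the box H/ACA class, which guides pseudouridylation, Nhp2 was at -0.25, the pseudouridine synthase Dkc1 at -0.099 and Gar1 at 0.051. The snoRNP chaperone Nolc1 was at -0.22. The abundant nucleolar proteins Ncl (-0.021), Npm1 (0.026) and the GTPase Gnl3 (0.071) did not share the shift. The remaining members ranged from -0.17 for Polr1b, a core subunit of RNA polymerase I, to 0.066 for the small subunit factor Nop14.

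Dll4 loss at the same stage and with the same Cre gave a like median. In Dll4flox;Nfatc1-Cre hearts 26 of 33 log2 fold changes were negative (49.1% of all genes), with a median of -0.087 and a range of -0.41 to 0.20. Called genes made up 0.86% of all genes for lower and 1.31% for higher, and 1 member was called lower. Without the adjustment, 14 members were lower and 2 higher at p under 0.05, against 10.8% of all genes lower and 10.6% higher. Both mutant libraries lay outside the WT range for 18 members, 16 below and 2 above, against 31.5% of all genes on either side and 16% below.

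Polr1a, the largest subunit of RNA polymerase I, on chromosome 6 (71909053 to 71984935, plus strand), measured 64.4 and 60.6 in Dll4flox;Nfatc1-Cre hearts, against 73.7, 77.6, 74.8 and 75.7 in WT. The groups did not overlap, and the log2 fold change was -0.27 (SE 0.0541, limma adjusted p = 0.0457). The call was lost without any 1 of the WT libraries (limma adjusted p = 0.0734 to 0.134). Without mutant library 1 or 2 a lone mutant library is left, so no test is given for those fits. With 1 library left out, the log2 fold change of Polr1a ranged from -0.31 to -0.23. Rrs1, a factor of large subunit assembly, measured 25.9 and 24.6 against 30.7 to 33.3 in WT (log2 fold change -0.31, limma adjusted p = 0.0578). Cad measured 93.7 and 85.0 in mutant hearts, against 104 to 117 in WT (-0.29, limma adjusted p = 0.0601). All of these mutant values were below the WT range. Polr1b was at -0.27, Ccdc86 at -0.33, Ftsj3 at -0.29, Utp20, a processome scaffold, at -0.28, and Rrp12 at -0.41, none past the adjusted threshold.

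Not all of the module lay low in Dll4flox;Nfatc1-Cre hearts. Npm1, the nucleolar histone chaperone nucleophosmin, measured 938 and 899 against 791 to 808 in WT (0.20, limma adjusted p = 0.0927), and Fbl measured 88.8 and 87.0 against 76.7 to 82.1 (0.13, limma adjusted p = 0.196). Both had every mutant value above the WT range without passing the adjusted threshold. Npm1 has many processed copies in the genome, so its reads may have been divided among them. Myc measured 22.4 and 32.5 in mutant hearts, against 21.9, 27.4, 24.3 and 26.5 in WT. The mutant libraries lay near the lowest and above the highest WT value, and its log2 fold change of 0.11 (SE 0.147) became -0.15 without mutant library 2.

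In Dll4flox;Cdh5-CreERT2 ventricles the genes that rose were Rrs1 and Fbl. Called genes made up 0.943% of all genes for higher and 0.209% for lower, and 2 members were called higher and none lower. Without the adjustment, 7 members had p under 0.05, all higher, against 8.18% of all genes higher at that p. All mutant libraries lay above all WT libraries for 9 members, against 6.97% of all genes, and below for none, against 5.98%. Rrs1, on chromosome 1 (9545408 to 9547455, plus strand), measured 42.7, 42.9 and 39.6 in mutant ventricles, against 30.8, 29.0, 35.5 and 28.3 in WT. The mean was 41.7 ± 1.86 (SD, n = 3) in mutant and 30.9 ± 3.22 (SD, n = 4) in WT ventricles, a log2 fold change of 0.43 (SE 0.0885, limma adjusted p = 0.0424). Fbl (fibrillarin), the methyltransferase of box C/D snoRNPs, on chromosome 7 (28169710 to 28179269, plus strand), measured 101, 98.1 and 80.9 in mutant ventricles, against 75.5, 69.7, 63.0 and 59.6 in WT. No mutant value of either gene reached down to the WT range, and the log2 fold change of Fbl was 0.47 (SE 0.0974, limma adjusted p = 0.0432). Both calls were lost without mutant library 2 (adjusted p = 0.233 for Rrs1 and 0.258 for Fbl) or any single WT library (0.0510 to 0.144).

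Myc came next by p in Dll4flox;Cdh5-CreERT2 ventricles. It measured 34.1, 33.9 and 32.7 in mutant ventricles, against 27.6, 29.7, 23.0 and 25.8 in WT, on chromosome 15 (61985391 to 61990374, plus strand). The mutant libraries all lay above the WT libraries, with a log2 fold change of 0.34 (SE 0.0920) that did not pass the adjusted threshold (limma adjusted p = 0.118). The other members without overlap were Nolc1 (0.10), Gnl3 (0.18), Mybbp1a (0.15), a nucleolar protein that binds Myb factors, Rrp9 (0.22), Nop2 (0.15) and Ftsj3 (0.17). Rrp12 was at 0.33 with overlap, since mutant library 3 measured 21.1 and the WT libraries spanned 19.2 to 23.5. The 4 negative members, Noc4l, Gar1, Dkc1 and Polr1a, lay between -0.025 and -0.0036. Nme1, the gene with the smallest p after Jag1 loss, was at 0.12 here with overlapping groups, at 48.7, 48.5 and 43.4 in mutant ventricles against 51.8, 41.8, 43.4 and 36.7 in WT.

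**Figure D3:**
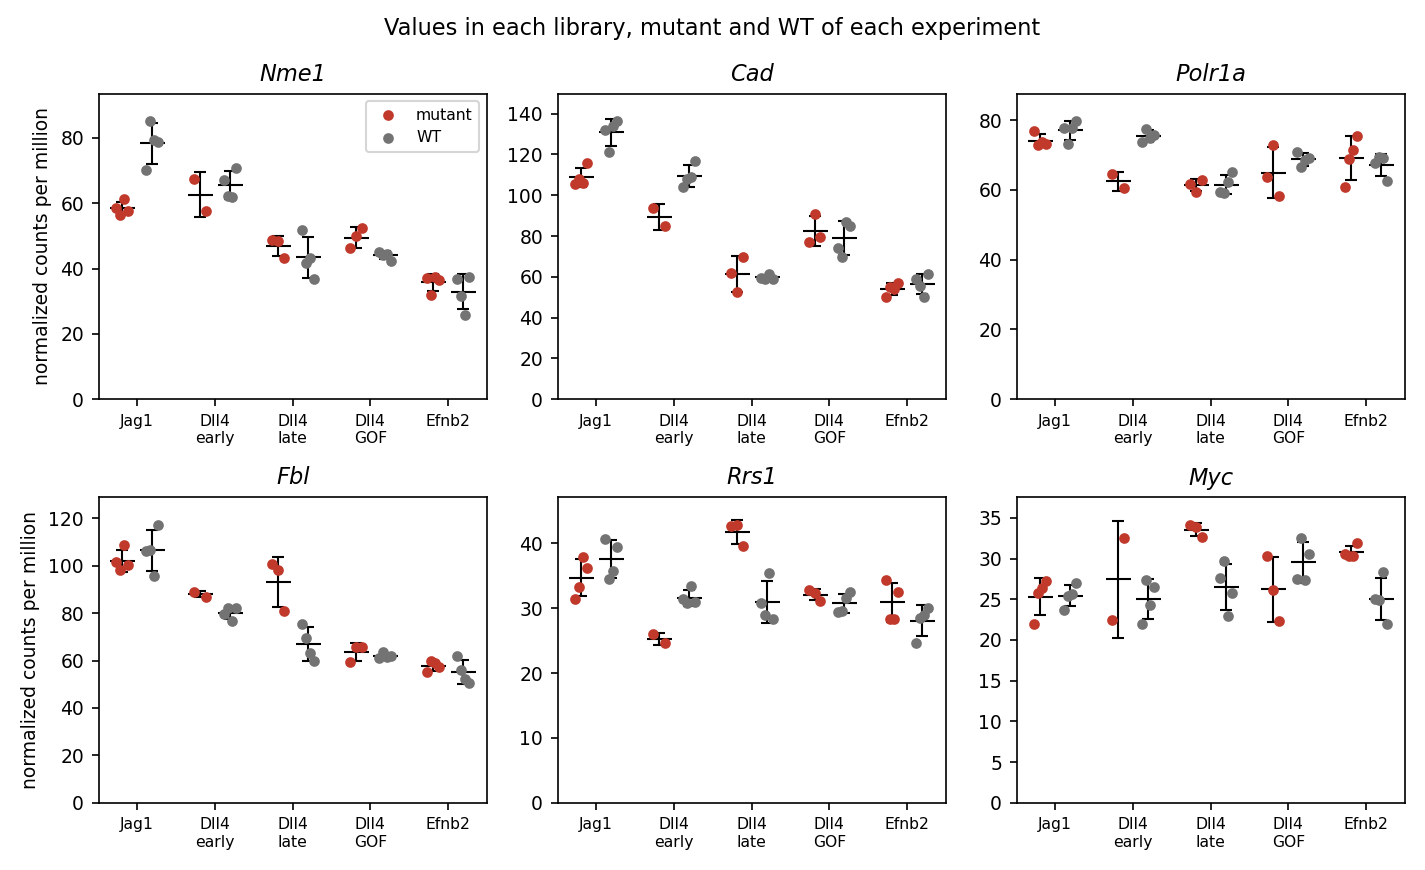
Normalized counts in CPM (y axis) of the 5 called genes and Myc in each library, mutant left of WT in each of the 5 experiments (x axis), with horizontal bars at the mean and error bars of 1 SD. Each called gene lies apart where it was called, Nme1 and Cad in the Jag1, Polr1a in the early Dll4, and Rrs1 and Fbl in the late Dll4 experiment. Cad, Rrs1 and Fbl also lie apart in the early Dll4 experiment, Nme1 in the Dll4GOF experiment, and Myc in the late Dll4 and Efnb2 experiments.

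The difference between Jag1 loss and late Dll4 loss was tested gene by gene as the fold change of the first minus that of the second. It was 1 of 3 such comparisons between experiments, and the 4 groups in it share no library. Of the 33 genes, 31 differences were negative and 2 positive, with a median of -0.29 against 0.0016 over all genes, of which 49.7% were negative. Called genes made up 1.06% of the 13436 genes tested, and 3 members were called, while 19 had p under 0.05 without the adjustment, against 19% of all genes. In sign, 25 members were lower after Jag1 loss and higher after late Dll4 loss, 3 were lower in both, 4 were higher in both and 1 was the reverse. Stage, tissue, Cre line and RNA kit all differ between the experiments and cannot be told apart from the ligand.

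Rrs1 differed by -0.55 (95% interval -0.79 to -0.30, limma adjusted p = 0.0394). In Jag1flox;Nfatc1-Cre hearts it had measured 31.5, 33.2, 38.0 and 36.2 against 40.7, 34.5, 35.8 and 39.4 in WT, a log2 fold change of -0.11 with overlap, so most of its difference came from late Dll4 loss. Fbl differed by -0.53 (-0.78 to -0.28, limma adjusted p = 0.0451), likewise with most of it from late Dll4 loss, and Nme1 by -0.53 (-0.79 to -0.27, limma adjusted p = 0.0485), most of it from Jag1 loss. The call of Nme1 was lost under quantile normalization (adjusted p = 0.0511) and in edgeR with TMM (0.0517). Each of the 3 called genes had thus been called in 1 of the experiments and not in the other. The interval of the difference excluded 0 for each of the 19 members with an unadjusted p under 0.05. Among the uncalled of these were Rrp12 (-0.58, from -0.91 to -0.25), Nop2 (-0.43), Nop56 (-0.41) and Myc (-0.35, from -0.60 to -0.097). The adjusted p of these genes was between 0.0586 and 0.134 in limma. Intervals that held 0 included those of Polr1a (-0.051, from -0.21 to 0.10), Ncl (-0.043), Nop14 (-0.049), Npm1 (0.0096) and Gar1 (0.059). The count of called members was 0 without any 1 of Jag1flox;Nfatc1-Cre mutant libraries 1 and 2, WT libraries 3 and 4 of that experiment, Dll4flox;Cdh5-CreERT2 mutant library 2 and WT libraries 2, 3 and 4. It was 1 without Jag1flox;Nfatc1-Cre mutant library 4, WT library 1 or WT library 2, and 5 and 9 without Dll4flox;Cdh5-CreERT2 mutant libraries 3 and 4. Without those late Dll4 libraries, 134 and 265 of 13436 genes were called higher, and 169 and 219 lower.

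**Figure D4:**
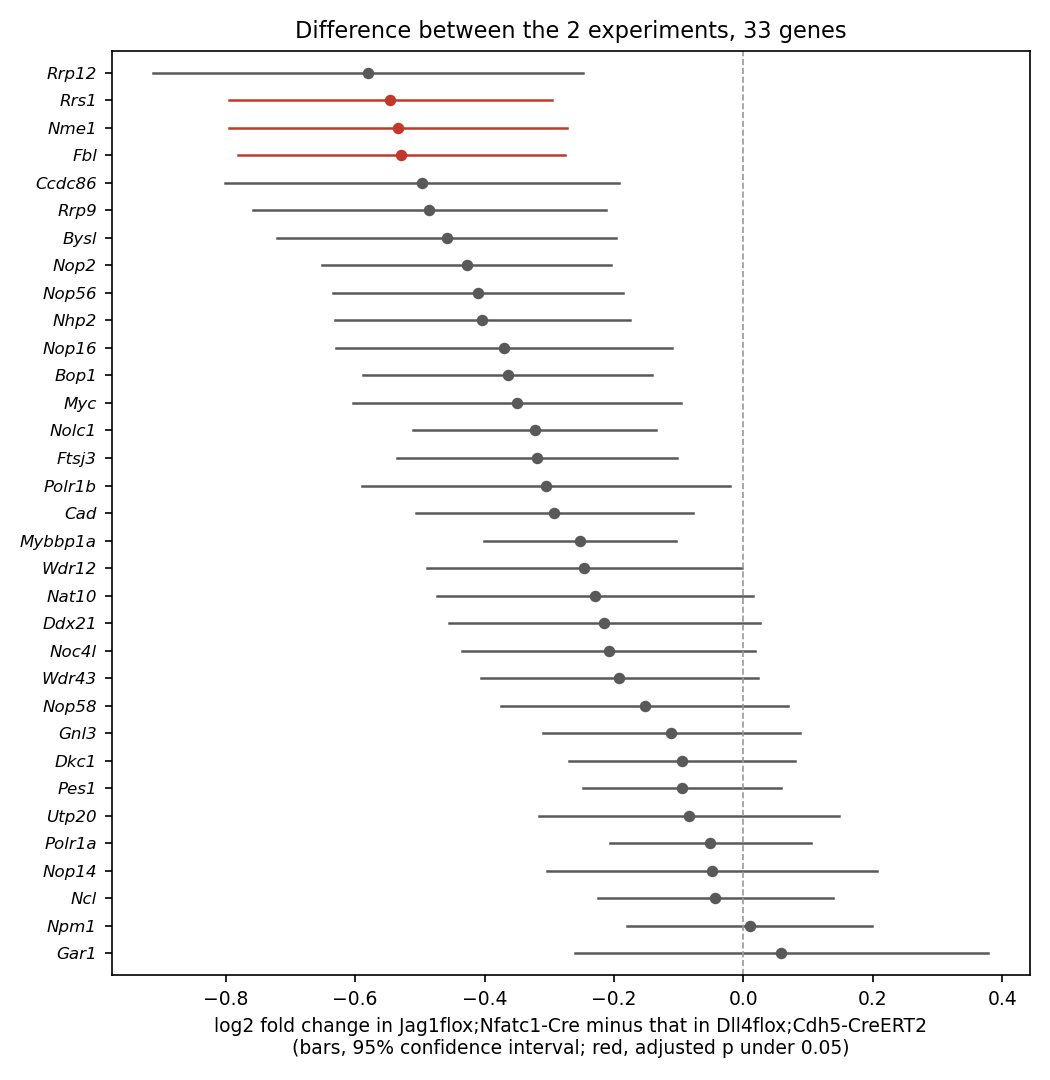
The log2 fold change in Jag1flox;Nfatc1-Cre hearts minus that in Dll4flox;Cdh5-CreERT2 ventricles (x axis) for each of the 33 genes (y axis), with 95% confidence intervals, and the called genes in red. The points of 31 genes lie below 0 and those of Npm1 and Gar1 above it.

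The other comparisons between experiments called no member. Between Jag1 and Dll4 loss with the same Cre at E12.5, 18 differences were negative and 15 positive, with a median of -0.0067. Called genes made up 0.0145% of all genes, and DESeq2 called no member. Without the adjustment 4 members had p under 0.05, a lower share than the 2275 of all 13795 genes tested. Nme1 had the difference farthest from 0, at -0.35 (95% interval -0.58 to -0.12, smallest adjusted p of the members 0.173 in limma). Between late Dll4 loss and Dll4 gain at E15.5, 27 differences were positive and 6 negative, with a median of 0.098. Called genes made up 0.324%, and the smallest adjusted p of the members was 0.126 in limma. DESeq2 called 1 member, Fbl, where it called 153 of 13560 genes higher and 58 lower. At an unadjusted p under 0.05 there were 4 members, a share close to the 11.9% of all genes. Myc differed by 0.51 (95% interval 0.21 to 0.82), Fbl by 0.44 and Rrs1 by 0.37, none called in limma.

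In Dll4GOF;Tie2-Cre ventricles no member was called by limma, edgeR or DESeq2, and limma called 0% of all genes in either direction. DESeq2 gave an adjusted p to 4416 of 13737 genes here, so a member outside those had no DESeq2 result. At an unadjusted p under 0.05 there were 2 members, Nme1 and Nhp2, both higher, where 4.05% of all genes were higher at that p. The median log2 fold change was 0.036, with 13 negative and 20 positive, and all mutant libraries lay above WT for 2 members (4.56% of all genes) and below for none (4.39%). Nme1 measured 46.2, 49.9 and 52.4 in mutant ventricles, against 45.1, 44.3, 44.5 and 42.4 in WT (0.16, limma adjusted p = 0.444). Nhp2, a core protein of box H/ACA snoRNPs, measured 31.6, 33.3 and 33.4 in mutant ventricles, against 27.2, 30.7, 27.1 and 30.1 in WT (0.19). These were the members without overlap. Bysl measured 42.4, 47.6 and 44.5 against 42.3, 42.5, 40.3 and 41.2 (0.11), and Myc 30.3, 26.1 and 22.3 against 27.5, 32.6, 27.4 and 30.6 in WT (-0.17, limma adjusted p = 0.620). Both of these overlapped. Mutant library 3 stood above the WT mean in 32 of the 33 genes, and the count of negative members was 20 without it and 4 without mutant library 4.

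In Efnb2flox;Nfatc1-Cre ventricles no member was called by limma, edgeR or DESeq2, where called genes made up 0.0296% for higher and 0% for lower. The median was 0.0054, with 15 negative and 18 positive. Myc had the smallest p of the members, at 30.6, 30.3, 30.3 and 31.9 in mutant ventricles, against 25.1, 24.9, 28.3 and 22.0 in WT. No mutant value was within the WT range, and the log2 fold change was 0.29 (SE 0.0797), with an unadjusted p of 0.00283 and an adjusted p of 0.631 in limma. It was the sole member with an unadjusted p under 0.05, where 3.22% of all genes were higher at that p, so 1 of 33 is no more than the background. It was also the sole member with every mutant library above WT (2.01% of all genes), and none lay below (1.63%). Rrs1 measured 34.3, 28.4, 28.3 and 32.6 against 24.7, 28.5, 29.0 and 30.1 (0.13), and Nop56 73.1, 58.8, 66.3 and 58.8 against 62.2, 56.3, 54.8 and 62.8 in WT (0.12). Both overlapped.

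Lists of related genes that hold none of the 33 members were set beside them. In Jag1flox;Nfatc1-Cre hearts the median log2 fold change was -0.13 over 15 genes of the RNA polymerase I machinery, -0.058 over 43 of the small subunit processome, -0.084 over 43 large subunit factors and -0.12 over 24 Myc targets outside ribosome assembly. In Dll4flox;Cdh5-CreERT2 ventricles the same lists had medians of 0.069, 0.073, 0.063 and 0.070, and in Dll4flox;Nfatc1-Cre hearts 0.075, -0.10, -0.095 and -0.038. The medians of these 4 lists had the members' sign in all but the polymerase list of the early Dll4 experiment. Other lists were mixed. The snoRNA host genes, 9 measured, had positive medians in all 3 experiments (0.19 after Jag1 loss, 0.23 after early and 0.20 after late Dll4 loss), and the Myc network factors had medians of 0.014, -0.0030 and 0.047 in the same order. The 22 cell division genes had a median of -0.12 after Jag1 loss, where 17 were negative, 0.0098 after early and -0.059 after late Dll4 loss, where 15 were negative. In the experiments without a called member they were also lopsided, with none called. There, 21 were negative and 1 positive after Efnb2 loss, and 2 were negative and 20 positive after Dll4 gain. Cytosolic ribosomal protein genes, which supply the protein part of the ribosome itself, had the members' sign after late Dll4 loss and the opposite sign after early Dll4 loss. Of 78, 43 were negative in Jag1flox;Nfatc1-Cre hearts (median -0.0080) and 77 were positive in Dll4flox;Nfatc1-Cre hearts (median 0.20), as were 72 in Dll4flox;Cdh5-CreERT2 (0.14), 75 in Dll4GOF;Tie2-Cre (0.11) and 66 in Efnb2flox;Nfatc1-Cre ventricles (0.073). By library, their summed level in Dll4flox;Nfatc1-Cre hearts was 40174 to 44009 against 35786 to 38850 in WT, without overlap. In the other experiments the mutant and WT sums overlapped. After late Dll4 loss they were 30111 to 35764 against 27443 to 33517.

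Few genes of these lists were called. In Jag1flox;Nfatc1-Cre hearts, 2 of the polymerase list fell, Polr2f (-0.30), a subunit shared by the polymerases, and Polr1e (-0.28), and 1 large subunit factor fell, Wdr18 (-0.31). Of 13 Myc network factors 1 rose, the Myc antagonist Mxi1 (0.60), and of 22 cell division genes 2 fell, Ccne1 (-0.35) and Mcm3 (-0.19). In Dll4flox;Nfatc1-Cre hearts the ribosomal protein genes Rpl30 and Rpl36a (both 0.30) and the snoRNA hosts Zfas1 and Snhg12 (both 0.43) rose, of 78 and 9 genes. Of 14 Myc network factors 1 fell, the Myc antagonist Mxd4 (-0.39). Of 24 Myc targets outside ribosome assembly, Odc1, the first enzyme of polyamine synthesis, rose (0.52), while Mat2a (-0.46) and the cyclin Ccnd2 (-0.34) fell. In Dll4flox;Cdh5-CreERT2 ventricles Odc1 (0.64) and the serine hydroxymethyltransferase Shmt2 (0.55) rose among the 24 Myc targets, and Cdkn1a (0.65), a cell cycle inhibitor, rose among 22 p53 targets. No gene of these lists was called in the Dll4GOF;Tie2-Cre or Efnb2flox;Nfatc1-Cre experiments.

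Markers of other cell types moved in the same experiments. In Jag1flox;Nfatc1-Cre hearts 2 of 3 ventricular markers fell, Myl2 (-0.54) and Irx4 (-0.34), with a summed level of 4430 to 4897 against 6060 to 6928 in WT. Of 4 epicardial markers 2 rose, Msln (0.68) and Wt1 (0.41). Smooth muscle markers summed to 373 to 405 against 431 to 521, with none of 4 called. Singly, 2 were negative and 2 positive, from -0.33 to 0.43. The erythroid marker Hemgn rose (2.37), and the summed level of the 5 erythroid markers was 2070 to 8581 in mutant hearts against 2787 to 4045 in WT. One of 3 macrophage markers, Lyz2 (-0.60), and 1 of 3 platelet markers, Pf4 (-0.63), fell. In Dll4flox;Nfatc1-Cre hearts 1 of 4 epicardial markers rose, Wt1 (0.57). Of 4 smooth muscle markers 1 fell, Cnn1 (-0.48), while the list was split at 2 negative and 2 positive with a median of -0.011. All 3 platelet markers were negative (median -1.23) and none was called, with a summed level of 11.5 to 15.2 against 25.2 to 66.5 in WT. All 5 erythroid markers were negative as well (median -0.77), none called. The summed atrial, endothelial, endocardial, smooth muscle and macrophage markers also lay below WT without overlap. With 2 mutant libraries, 16% of all single genes lay below WT in this way. Singly, 2 of 4 atrial, 3 of 5 endothelial, all 3 endocardial and 2 of 3 macrophage markers were negative, none called. In Dll4flox;Cdh5-CreERT2 ventricles no endothelial marker of 5 was called, but their summed level was 922 to 1152 against 844 to 923 in WT, while 1 of 4 epicardial markers, Wt1, rose (0.51). The other epicardial markers were negative (list median -0.33), and the sum of all 4 was 101 to 132 against 118 to 149 in WT. The part of these markers and of depth in the module's shifts was not tested.

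The promoters of the members were read for the E-box, because CACGTG is the Myc site named above. RefSeq windows on GRCm38.p6, from 250 bases before to 50 after a gene's start, were held for 27 of the 33 members. They were not held for Myc, Fbl, Npm1, Rrp12, Bop1 and Rrs1. CACGTG, which reads the same on both strands, stood in at least 1 window of 7 of the 27 members (25.9%): Ccdc86, Mybbp1a, Nme1, Nop2, Pes1, Utp20 and Wdr43. It stood in 2187 of 27025 genes with a window (8.09%) and in 2349 of 32851 windows (7.15%). Those genes were not limited to expressed ones or matched to the members for base composition, and no base past the windows was searched. The letters are a description and not a measured binding site. The stretches shown are from the 4 members with an E-box and the smallest p for Jag1 minus late Dll4 loss, with the E-box in capitals, from 150 bases before to 30 after a start.
Nme1 start 1, chr11:93967996-93968175, minus strand: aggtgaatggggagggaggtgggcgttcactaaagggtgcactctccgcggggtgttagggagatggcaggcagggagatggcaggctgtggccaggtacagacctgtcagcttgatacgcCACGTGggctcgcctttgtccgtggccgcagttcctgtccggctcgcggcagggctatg
Nme1 start 2, chr11:93968243-93968422, minus strand: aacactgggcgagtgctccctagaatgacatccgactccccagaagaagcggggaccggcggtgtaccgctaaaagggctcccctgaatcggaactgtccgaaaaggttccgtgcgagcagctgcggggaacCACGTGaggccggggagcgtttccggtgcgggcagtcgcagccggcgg
Nop2, chr6:125131733-125131912, plus strand: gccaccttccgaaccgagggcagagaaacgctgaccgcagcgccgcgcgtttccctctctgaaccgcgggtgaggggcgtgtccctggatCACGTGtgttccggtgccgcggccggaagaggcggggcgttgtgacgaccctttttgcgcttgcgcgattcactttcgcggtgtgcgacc
Ccdc86, chr19:10949237-10949416, minus strand: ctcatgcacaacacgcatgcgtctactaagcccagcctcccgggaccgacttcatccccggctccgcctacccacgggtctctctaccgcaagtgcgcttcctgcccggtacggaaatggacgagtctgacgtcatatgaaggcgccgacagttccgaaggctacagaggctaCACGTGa
Mybbp1a, chr11:72441347-72441376, plus strand: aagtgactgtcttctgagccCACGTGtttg

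In Nme1 the E-box began 29 bases before the first start shown and 18 bases before the other, so that each start with a window had one close by. It began 60 bases before the start of Nop2 and at base 24 after that of Ccdc86. In Mybbp1a it began at base 41 after the start, and for that gene only the 30 bases around it are shown. After Jag1 loss Nme1 fell (log2 fold change -0.42), and Ccdc86 (-0.35), Nop2 (-0.28) and Mybbp1a (-0.099) did not pass the test. After late Dll4 loss the same genes lay at 0.12, 0.14, 0.15 and 0.15, none called. Of the other members with an E-box, Pes1 was at 0.020 after Jag1 loss and Utp20 and Wdr43 at -0.054 and -0.071. Members with the same letters thus spanned -0.42 to 0.020. All 33 spanned -0.42 to 0.071, but they include these genes and the members without a window, and Nme1 sets the lower end of both ranges.

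In WT hearts most members were lower at the later stage. The tables were normalized separately, and tissue (whole heart at E12.5, ventricles later) and RNA kit change together with stage and cannot be told apart from it, so these levels are a description with no test. Of the 33 genes, 30 were lower in the 8 E15.5 libraries than in the 8 E12.5 libraries by mean log2 value and 3 were higher, with a median difference of -0.29, against -0.080 over 13045 genes, of which 7833 were lower. All E15.5 libraries lay below all E12.5 libraries for 16 members, against 16.6% of all genes, and above for none, against 9.34%. Those 16 were Polr1a, Fbl, Nop56, Npm1, Nolc1, Gnl3, Mybbp1a, Rrp12, Wdr43, Utp20, Nat10, an rRNA acetyltransferase, Nop2, Bop1, Ftsj3, Nme1 and Cad. With the recovered reads of all WT libraries scaled together by TMM, the median difference was -0.21 and 28 members were lower, while 50.3% of all genes were lower. On that scale 10 members lay below without overlap, against 1486 of 13045 genes.

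Nop56 had the largest difference of the members, at -0.89. Its lowest, median and highest values were 128, 138 and 158 in WT at E12.5, 69.7, 72.5 and 88.6 at E15.5, and 54.8, 59.2 and 62.8 at E16.5, with no overlap between successive stages. Cad differed by -0.80, with 104, 119 and 136 at E12.5, 59.2, 65.5 and 87.0 at E15.5, and 50.0, 57.4 and 61.5 at E16.5. Nme1 differed by -0.71, with 61.9, 70.5 and 85.1 at E12.5, 36.7, 43.8 and 51.8 at E15.5, and 25.8, 34.2 and 37.4 at E16.5. For Cad and Nme1 the first of these stages stood apart, and E15.5 and E16.5 overlapped.

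At the other end, Dkc1, Ncl and Myc were the only members higher at E15.5 than at E12.5 by mean log2 value, on the values normalized separately. With joint TMM scaling, 28 of the 33 were lower. Dkc1 spanned 40.7 to 46.5 at E12.5, 39.6 to 45.6 at E15.5 and 40.2 to 45.3 at E16.5. Ncl (nucleolin), an abundant organizer of the nucleolus, spanned 454 to 592, 514 to 665 and 561 to 570 in the same order. Myc had a lowest, median and highest value of 21.9, 25.5 and 27.4 at E12.5, 23.0, 27.6 and 32.6 at E15.5, and 22.0, 25.0 and 28.3 at E16.5. The stages of Dkc1, Ncl and Myc overlapped, and their differences between E15.5 and E12.5 were 0.040, 0.12 and 0.15. Pes1 was nearer to 0, at -0.019, and Ncl averaged 642 and 526 in the 2 WT groups at E15.5. Of the called members, Fbl averaged 106 ± 8.75 and 80.1 ± 2.57 in the WT groups at E12.5, 67.0 ± 7.09 and 62.0 ± 1.13 at E15.5, and 55.3 ± 5.06 at E16.5 (SD, n = 4 each). Its lowest value at E12.5, 76.7, was above its highest later one, 75.5.

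**Figure D5:**
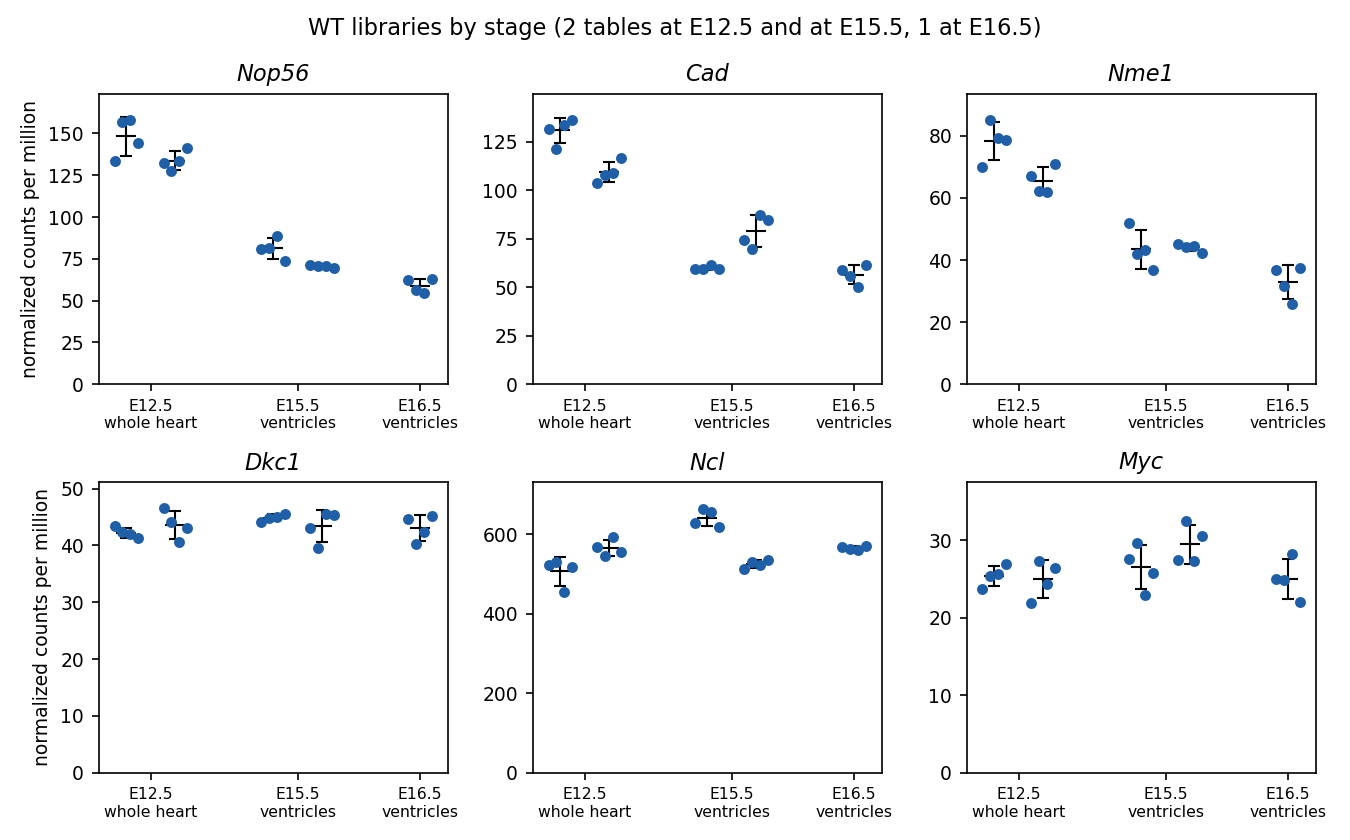
Normalized counts in CPM (y axis) of the 3 members that differed most and the 3 that were highest at E15.5 relative to E12.5, 1 point a WT library, in 2 tables at E12.5, 2 at E15.5 and 1 at E16.5 (x axis), with the mean and 1 SD of each table. Nop56, Cad and Nme1 step down after E12.5, and Dkc1, Ncl and Myc overlap at all stages.

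By role, on the values normalized separately, the median difference between E15.5 and E12.5 was -0.75 for the nucleotide enzymes. It was -0.52 for box C/D and -0.44 for box H/ACA proteins, and -0.31 for small and -0.28 for large subunit factors. For nucleolar organizers it was -0.27, and for the polymerase subunits -0.15. Between E16.5 and E15.5, 31 members were lower and 2 higher, with a median of -0.14 against -0.057 over all genes. All E16.5 libraries lay below all E15.5 libraries for 4 members, Nop56, Npm1, Mybbp1a and Ccdc86, against 9.63% of all genes, and above for none, against 4.35%. Of 78 ribosomal protein genes, all 78 were lower at E15.5 than at E12.5, with a median of -0.38, and 36 did not overlap.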

How the data were processed

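RNA from 36 pools or single hearts was sequenced. Per the labels and the study's methods, reads were demultiplexed by the authors (CASAVA 1.8.2), cut with cutadapt 1.6, and then the authors dropped those under 30 bases, mapped them to GRCm38 transcripts and estimated expected counts with RSEM (1.2.3 in the submitters' processing notes). The signal deposited by the authors is, for expressed genes, a count scaled to CPM of a normalized library size. Undoing the scaling and an offset of 0.5 gave whole counts, within 0.01 of a count, for 100% of values in every library. No 2 libraries held the same counts.

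Each mutant was compared with its own WT on log2(value + 0.5) by limma 3.58.1 (R 4.3.3), whose variances followed a trend with the mean, with Benjamini-Hochberg adjustment over all genes of the table. The labels name no litters, so p-values measure the spread between these libraries. Differences between experiments were contrasts of 4 group means. No filter on low values was added. The result for 1 marker gene is not reported here. The fit was also run on simulated data with the same scatter setting for every gene, so that run does not measure its error on these libraries.

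The members and lists were chosen with earlier results of these data known. Named with values in every library are Myc and, per experiment, up to 6 called members or the 3 with the smallest p, for WT the 3 members at each end of the stage difference, and of each list up to 3 called genes. Other members with values were chosen after these were seen. Promoters shown were the up to 4 with CACGTG and the smallest p in the comparison with most called members.

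Alternatives were a pseudocount of 1, the upper 75% of genes, quantile normalization, removal of library medians, no trend, a replicate block, edgeR 4.0.16 and DESeq2 1.42.0 on the recovered counts, an adjusted p under 0.01, joint TMM scaling of WT libraries, and each library left out. The counts of negative members and the medians were added after seeing the data. Same-numbered mutant and WT libraries share only a number.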

Additional observations from a re-analysis of the deposited data

Results flagged for a closer look

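The difference in log2 fold change between Jag1flox;Nfatc1-Cre hearts and Dll4flox;Cdh5-CreERT2 ventricles passed limma's test for Rrs1 (-0.55), Nme1 (-0.53) and Fbl (-0.53), the first below 0 and the second above it for each gene. Rrs1 and Fbl overlapped between mutant and WT after Jag1 loss, and Nme1 did after late Dll4 loss.

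Among the 4 WT libraries of the Jag1 experiment, Ncl had 1 library at 454, apart from the others at 519 to 532. Its gap to the nearest library was 0.839 of the range of the group, above Dixon's critical value at 95%. Of 52 values tested in this way 1 was marked, and chance marks about 1 in 20.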

How the results depend on the processing

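In the Jag1, early Dll4 and late Dll4 experiments the median of the members kept its sign under the alternatives run. With 1 library left out it spanned -0.015 to 0.056 after Dll4 gain and -0.018 to 0.017 after Efnb2 loss, and so turned sign. Negative members numbered 27 to 29 of 33 in the Jag1 experiment, 24 to 28 in the early Dll4 and 2 to 6 in the late Dll4 experiment, and 2 to 5 of 33 there with 1 library left out. The median of the early Dll4 experiment ranged from -0.16 to -0.085 with 1 library left out, and the negative count of the Dll4GOF experiment from 4 to 20.

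Calls were less stable. Of the members called lower after Jag1 loss (2), limma without the trend and an adjusted p under 0.01 left 0, DESeq2 gave 10, and leaving out 1 library gave 0 to 3. After early Dll4 loss (1 lower), quantile normalization, no trend and 0.01 left 0, and the upper 75% of genes gave 2. DESeq2 gave 4 lower and 1 higher there, and leaving out 1 WT library left 0. After late Dll4 loss (2 higher), quantile normalization, no trend and 0.01 left 0, and leaving out 1 library gave 0 to 3. For Jag1 minus late Dll4 loss (3), no trend left 0, DESeq2 gave 12, quantile normalization and edgeR gave 2 each without Nme1, and leaving out 1 library gave 0 to 9. For late Dll4 loss minus gain (0), DESeq2 gave 1. In the WT stages, joint TMM scaling left 10 of 16 members without overlap, and leaving out a table gave 16 to 24. Myc in the Jag1 experiment turned positive without mutant library 1 (0.055) or WT library 4 (0.018), within a range of -0.046 to 0.055 with 1 library left out, and in the early Dll4 experiment it turned negative without mutant library 2 (-0.15, in a range to 0.38). The causes were not tested.

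With a replicate block, 1 member was called lower after Jag1 loss, 0 after early Dll4 loss, and 1 higher after late Dll4 loss. Same-numbered libraries correlated from -0.13 to 0.23, so the block rests on a number alone.

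Over all genes, calls higher and lower after Jag1 loss were 156 and 89, against 35 and 13 without the trend, 58 and 19 with the block, 651 and 461 with DESeq2, 5 and 3 at 0.01, and 214 and 155 in the upper 75% of genes. After early Dll4 loss they were 188 and 123, against 47 and 9 without the trend, 22 and 7 with the block, 471 and 412 with DESeq2, and 20 and 4 at 0.01. After late Dll4 loss they were 131 and 29, against 1 and 4 without the trend, 271 and 75 with DESeq2, and 1 and 3 at 0.01. DESeq2 called 13 and 32 after Dll4 gain (limma 0 and 0) and 16 and 9 after Efnb2 loss (limma 4 and 0). For Jag1 minus late Dll4 loss the calls were 69 and 73, against 18 and 13 without the trend and 259 and 230 with DESeq2, for late Dll4 loss minus gain 34 and 10, against 0 and 1 and 153 and 58, and for Jag1 minus early Dll4 loss 1 and 1, against 140 and 74 with DESeq2. With 1 library left out, higher calls spanned 13 to 362 after Jag1 loss and 2 to 421 after late Dll4 loss. Lower calls spanned 4 to 176 after Jag1 loss. After early Dll4 loss, higher calls spanned 28 to 127 with 1 WT library left out.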
